A study of Mus musculus with 6 samples.

Results

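Lymphocytes recognise antigen through receptors that signal by way of small partner proteins. In T cells these partners form the CD3 complex, with CD4 or CD8 as co-receptors, and in B cells they are the chains CD79A and CD79B. Cytotoxic T cells and natural killer cells also store granules that hold granzymes and the membrane protein NKG7. In the healthy brain lymphocytes are scarce and lie mostly in blood vessels, meninges and choroid plexus, so their transcripts are used to look for such cells in a microglial preparation.

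Expression of 9 lymphocyte marker genes, Cd3e, Cd3d, Cd4, Cd8a, Nkg7, Gzma, Ms4a4b, Cd79a and Cd79b, was examined in microglia with and without overexpression of PGC-1α, a coactivator of transcription known for its role in making mitochondria. The genes were taken as a fixed list of names, and their probes were found by matching each probe's transcript to a gene symbol, which gave 13 of the 56605 probes on the array and 9 of 23462 named genes. RNA came from 3 samples of each group, each run on its own array, from male mice that the labels give as 10 weeks old. Control PGC-1αf/f mice, on a C57BL/6 background, carried the loxP-controlled PGC-1α allele and eGFP without Cre. Their mPGC-1α littermates also carried a tamoxifen-inducible Cre (Cre/ERT2) in the Cx3cr1 locus. That gene is not limited to microglia, and border macrophages and some blood monocytes are among the other cells that express it. By the study's methods, tamoxifen was followed by an interval before experiments, and microglia were isolated from minced brain by Percoll centrifugation and magnetic selection through the surface receptor P2RY12. The labels do not give the tamoxifen treatment of each sample, and nothing states that samples of a group were single animals, so p-values measure only the spread between these samples.

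The arrays measured the signal of each probe as a level, written here as log2 intensity minus the 75th percentile of that array, so that a difference of 1 is a doubling. Of 59305 non-control spots, 27025 to 30272 were well above background on each array, and 0 were saturated. Of the markers of microglia, 12 of 12, P2ry12 and Tmem119 among them, were well above background on every array. Ppargc1a, which encodes PGC-1α, was at -0.49 ± 0.70 (SD, n = 3) in PGC-1αf/f and 0.31 ± 0.25 (SD, n = 3) in mPGC-1α microglia by its brighter probe, a difference of 0.80 (SE 0.35) with overlapping groups and an adjusted p of 0.306 in limma. PGC-1αf/f replicate 3 stood apart, with a mean correlation with the other arrays of 0.928 against 0.962 to 0.972 for the rest. On mPGC-1α replicate 3, 0 of 7 probes of Y-linked genes were above background, against 5 or 6 of 7 on the others, although the label gives a male. The groups occupied different rows of 1 slide, so that slide row and group cannot be told apart. Over all tested probes, 20 of 25257 passed an adjusted p of 0.05.

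Transcripts of T cells and cytotoxic lymphocytes were measurable in both groups. Of the 9 markers, 8 were well above background on all 6 arrays, and Cd79a on 0 of 6. The mean was higher in mPGC-1α microglia for 7 of the 8 tested genes, with differences from 0.25 for Cd4 and Cd8a to 1.47 for Gzma, and lower by 0.30 for Cd79b. Of all tested probes 49.7% had a higher mean in mPGC-1α microglia. The difference was at least 1 for 3 of the 8, Gzma, Nkg7 and Ms4a4b, beside 3.71% of all tested probes. No marker passed the test: 0 of 8 had an adjusted p under 0.05 in limma, beside 0.0792% of all probes and 0.0713% with mPGC-1α higher. An unadjusted p under 0.05 was also found for 0 of 8, beside 7.53% of all tested probes with mPGC-1α higher and 9.21% with mPGC-1α lower. The groups overlapped for each of the 7 markers with 6 values, whereas 11.4% of the 22997 tested probes with 6 values had non-overlapping groups with mPGC-1α higher, and 13.7% with mPGC-1α lower. The median difference over the 8 markers was 0.89, against -0.0026 over all tested probes. In such bulk RNA, fewer cells of a type and less RNA per cell cannot be told apart.

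**Figure D1:**
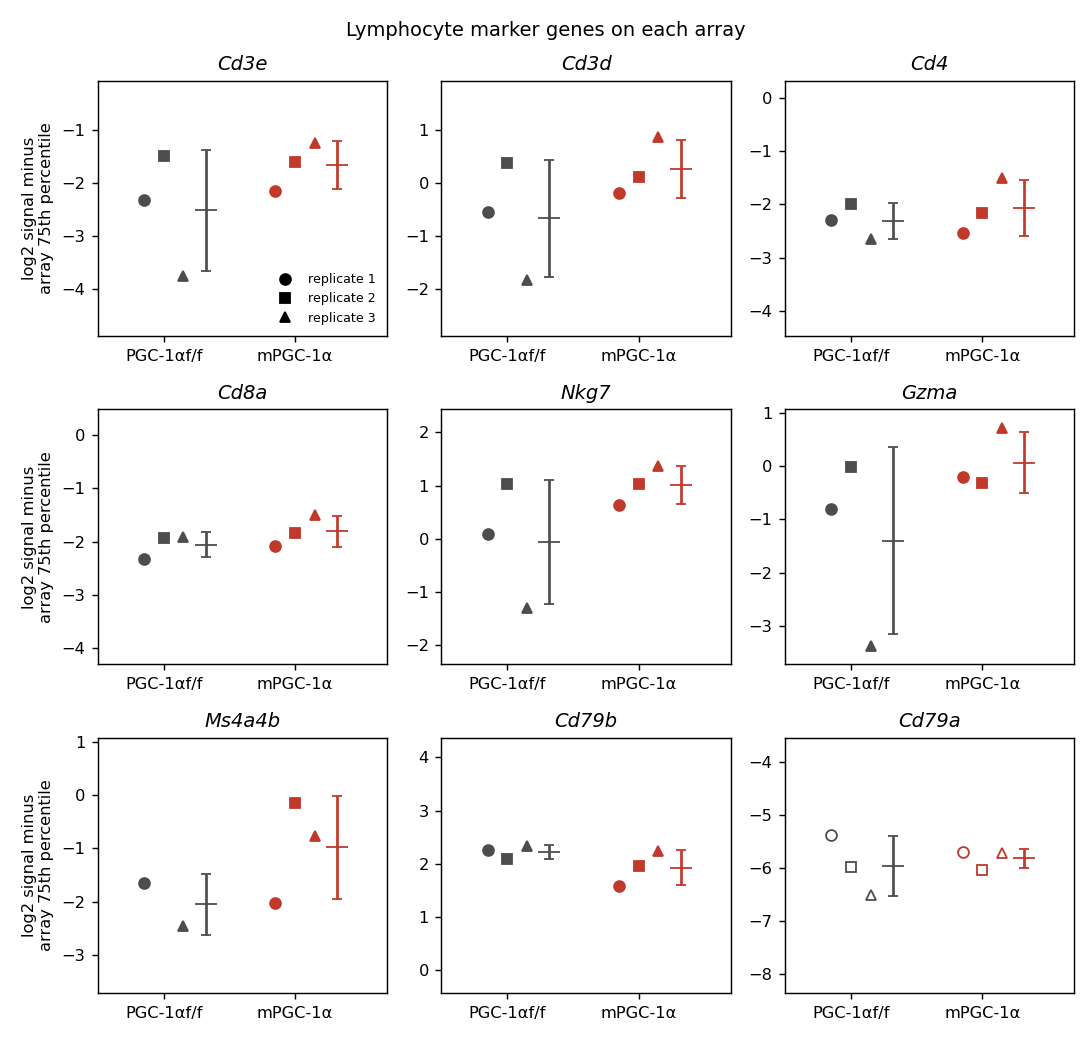
Each panel plots one lymphocyte marker gene, with the level on the vertical axis (log2 signal over the 75th percentile of its array) and the groups on the horizontal axis. Points are arrays, with a shape for each replicate number, open where the probe was not well above background, and bars show the mean ± SD. PGC-1αf/f replicate 3 was the lowest array for Cd3e, Cd3d, Cd4, Nkg7 and Gzma and the highest for Cd79b.

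Cd3e and Cd3d encode the epsilon and delta chains of CD3, which pass the signal of the T cell receptor into the cell. The Cd3e level was -2.31, -1.49 and -3.74 in PGC-1αf/f replicates 1 to 3 and -2.14, -1.60 and -1.24 in mPGC-1α replicates 1 to 3. The mPGC-1α values lay within a range of less than 1, while those of the controls were spread over more than 2. The mean was -2.51 ± 1.14 in the controls and -1.66 ± 0.45 in mPGC-1α microglia (SD, n = 3 each), a difference of 0.85 (SE 0.55, 95% interval -0.45 to 2.16, limma adjusted p = 0.449). For Cd3d the brighter probe read -0.54, 0.37 and -1.82 in the controls and -0.19, 0.11 and 0.86 in mPGC-1α microglia. Here too the control of replicate 2 lay among the mPGC-1α arrays, and the group difference was 0.93 (SE 0.55, adjusted p = 0.416 in limma). The second Cd3d probe gave 1.00 (SE 0.54), so both Cd3d probes agreed within their errors. The second probe of Cd3e, to the same transcript, was well above background on 0 of 6 arrays.

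Cd4 and Cd8a encode the co-receptors that bind major histocompatibility complex class II and class I molecules. Cd4 read -2.30, -1.99 and -2.66 in the controls and -2.53, -2.17 and -1.49 in mPGC-1α microglia. Only mPGC-1α replicate 3 lay above all controls, and the difference was 0.25 (SE 0.30, interval -0.45 to 0.95, limma adjusted p = 0.682). Without that array the difference turned to -0.032, without PGC-1αf/f replicate 3 it was 0.08, and without PGC-1αf/f replicate 2 or mPGC-1α replicate 1 it was 0.42 or 0.49. Cd8a read -2.32, -1.93 and -1.91 in the controls and -2.08, -1.83 and -1.50 in mPGC-1α microglia. PGC-1αf/f replicate 3 was not low for this gene, unlike for Cd3e and Cd3d, and the difference was 0.25 (SE 0.20, interval -0.22 to 0.72, limma adjusted p = 0.54). A second probe of each gene was well above background on 0 of 6 arrays. For Cd8a that probe is assigned to another transcript, and for Cd4 to the same one.

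Nkg7 and Gzma mark cytotoxic lymphocytes, and Ms4a4b marks T cells. Nkg7, a granule membrane protein of cytotoxic T cells and natural killer cells, read 0.10, 1.02 and -1.30 in the controls and 0.64, 1.02 and 1.36 in mPGC-1α microglia. Both second replicates had the same level to 2 decimals, and the difference between groups was 1.07 (SE 0.55, interval -0.23 to 2.37, limma adjusted p = 0.362). Gzma, which encodes the granule protease granzyme A, read -0.81, -0.01 and -3.38 in the controls and -0.20, -0.31 and 0.72 in mPGC-1α microglia. It had the widest spread of the markers, 4.10 from the lowest to the highest array, and a difference of 1.47 (SE 0.82, interval -0.48 to 3.41), which is 2.76-fold on the linear scale with a limma adjusted p of 0.392. Ms4a4b, a membrane protein of the MS4A family found in T cells, read -1.64 and -2.46 in PGC-1αf/f replicates 1 and 3 and -2.03, -0.14 and -0.76 in mPGC-1α microglia. Its spot on PGC-1αf/f replicate 2 was an outlier by the scanner software's own call and was dropped, so the fitted difference of 1.07 (SE 0.57, limma adjusted p = 0.384) rests on 5 arrays. With that spot kept, the difference was 0.64, and without mPGC-1α replicate 2 it was 0.65.

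Cd79a and Cd79b encode the chains that signal for the B cell receptor, and these 2 genes did not go together. The Cd79a probe read 23.6 to 27.9 intensity units on the 6 arrays, below the lowest signals called well above background, 113 to 119 units, so it has only an upper bound in both groups and no fold change is given. Cd79b read 2.26, 2.08 and 2.34 in the controls and 1.58, 1.95 and 2.24 in mPGC-1α microglia. It was the only marker with a lower mean in mPGC-1α microglia, with a difference of -0.30 (SE 0.19, interval -0.76 to 0.16, limma adjusted p = 0.449). PGC-1αf/f replicate 3, the lowest control for Cd3e, Cd3d, Cd4, Nkg7, Gzma and Ms4a4b, was the highest array for Cd79b.

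A single array set much of the size of these differences. Without PGC-1αf/f replicate 3 the median over the 8 markers was 0.33 in place of 0.89, with 0.24 for Cd3e, 0.35 for Cd3d, 0.45 for Nkg7, 0.47 for Gzma and 0.67 for Ms4a4b. Cd8a went from 0.25 to 0.32 and Cd79b from -0.30 to -0.25. For these 2 genes other arrays counted for more. Cd8a was at 0.098 without mPGC-1α replicate 3, 0.12 without PGC-1αf/f replicate 1 and 0.39 without mPGC-1α replicate 1, and Cd79b was at -0.13 without mPGC-1α replicate 1 and -0.46 without mPGC-1α replicate 3. Without replicate 3 of both groups, thus also without the array that lacked Y-linked signal, the median was 0.098, the mPGC-1α mean was higher for 6 of 8 markers, and Cd4 went to -0.20. Leaving out PGC-1αf/f replicate 2, the control with the highest Cd3e, Cd3d, Cd4, Nkg7 and Gzma, raised the median to 1.22, with 1.37 for Cd3e, 1.44 for Cd3d and 1.61 for Nkg7. In that fit 4 of 8 markers were higher at an unadjusted limma p under 0.05, beside 7.41% of all probes, with the lowest adjusted p at 0.213. There an unadjusted p under 0.05 in either direction was found for 15% of all probes. By list it was found for 10 of 13 tested T cell genes and 7 of 11 cytotoxic and natural killer cell genes. For B cell genes it was 2 of 10, and for lymphocyte trafficking and MS4A family genes 7 of 9 and 3 of 7. The count was 11 of 16 for neutrophil and monocyte genes, 2 of 12 for microglial and 0 of 9 for border macrophage genes. It was 1 of 6 for endothelial and mural, 0 of 4 for erythroid and 0 of 3 for dendritic cell genes. Leaving out mPGC-1α replicate 1 gave Ms4a4b an unadjusted limma p of 0.00775 (adjusted 0.288). Leaving out mPGC-1α replicate 3 gave Cd79b one of 0.0441 (adjusted 0.371). Each was the only 1 of 8 markers under 0.05 in its fit, beside 12.1% and 13.1% of all probes in either direction. In slide columns 1 and 2, the only columns with an array of each group, the differences were 0.17 and -0.11 for Cd3e, 0.36 and -0.26 for Cd3d, 0.54 and 0.0033 for Nkg7, and 0.60 and -0.31 for Gzma. In those columns the differences were below 0 for Cd4, at -0.23 and -0.18, and for Cd79b, at -0.68 and -0.13, and above 0 for Cd8a, at 0.24 and 0.10. For Ms4a4b column 1 gave -0.39, and column 2 gave no value.

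**Figure D2:**
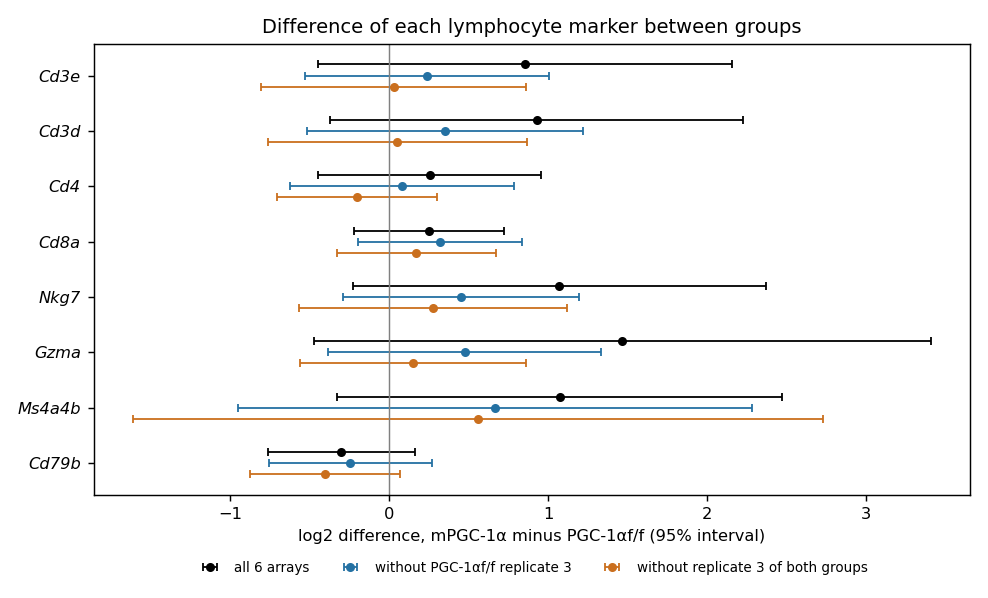
The horizontal axis gives the log2 difference, mPGC-1α minus PGC-1αf/f, with its 95% interval from limma, for the 8 tested markers on the vertical axis. Colours stand for all 6 arrays, without PGC-1αf/f replicate 3, and without replicate 3 of both groups. Every interval includes 0, and Gzma went from 1.47 to 0.47 and 0.15 over these fits.

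Over the arrays, Cd3e, Cd3d, Nkg7 and Gzma varied together. Their 6 pairs had Pearson r from 0.970 to 0.992 and Spearman rho from 0.829 to 1 over 6 arrays. Of 21 pairs among the 7 markers with 6 values, exact two-sided permutation tests gave these 6 a p adjusted over the 21 pairs of 0.0146 to 0.0194 for r and 0.05 to 0.122 for rho. Without the 2 arrays farthest from the median of 1 gene of the pair, r was 0.742 to 0.965, without PGC-1αf/f replicate 3 it was 0.842 to 0.964, and after removal of the group means it was 0.960 to 0.996. Cd4 went with Cd3d at r = 0.854 and rho = 0.943, with adjusted exact permutation p of 0.108 and 0.05. Cd8a had r = 0.469 with Cd3d over 6 arrays (adjusted exact permutation p = 0.556) and 0.958 without PGC-1αf/f replicate 3. Cd79b had r between -0.394 and 0.239 with the other markers, and 0 of those 6 pairs passed the exact permutation test, with adjusted p from 0.556 to 0.699. Of these 6 pairs 4 had r below 0, those with Cd3d, Cd3e, Gzma and Nkg7, and without PGC-1αf/f replicate 3 all 6 had r above 0, at 0.05 to 0.67.

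**Figure D3:**
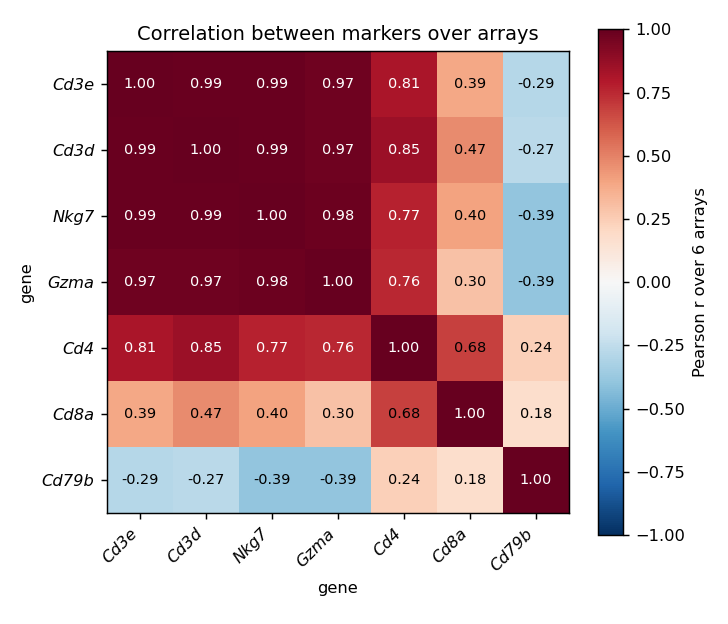
Each cell gives Pearson r over 6 arrays between the log2 levels of the markers named on the axes, with the colour scale running from -1 to 1. Cd3e, Cd3d, Nkg7 and Gzma form a block at 0.97 or above, while the row of Cd79b runs from -0.39 to 0.24.

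The 4 markers that varied together lie on chromosomes 7, 9 and 13, with Cd3d and Cd3e close to each other on chromosome 9. Their promoters are printed for what they share, beside that of Cd79a, the marker not well above background. A RefSeq sequence of build GRCm38.p6 was matched for 7 of the 9 markers, all but Cd4 and Cd79b. Each line holds the 250 bases before the transcript start, 5′ to 3′ on the strand of the gene. Capitals mark the core GGAAG, which ETS family factors bind and which reads CTTCC on the other strand, and the core TGTGGT, which RUNX factors bind and which reads ACCACA on the other strand. Both families act in T cells and natural killer cells.
Cd3d (chr9:44981536-44981785, plus strand): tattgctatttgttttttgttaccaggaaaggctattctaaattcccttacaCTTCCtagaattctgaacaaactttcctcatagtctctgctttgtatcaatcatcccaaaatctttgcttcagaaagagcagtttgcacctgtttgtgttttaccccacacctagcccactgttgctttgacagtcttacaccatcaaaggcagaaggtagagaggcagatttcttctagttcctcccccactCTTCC
Cd3e (chr9:45009612-45009861, minus strand): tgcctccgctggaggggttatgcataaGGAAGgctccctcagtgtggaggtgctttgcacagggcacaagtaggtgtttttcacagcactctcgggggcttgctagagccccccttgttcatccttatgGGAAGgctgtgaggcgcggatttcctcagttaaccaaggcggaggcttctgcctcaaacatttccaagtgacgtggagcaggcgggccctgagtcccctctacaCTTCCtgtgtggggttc
Nkg7 (chr7:43436888-43437137, plus strand): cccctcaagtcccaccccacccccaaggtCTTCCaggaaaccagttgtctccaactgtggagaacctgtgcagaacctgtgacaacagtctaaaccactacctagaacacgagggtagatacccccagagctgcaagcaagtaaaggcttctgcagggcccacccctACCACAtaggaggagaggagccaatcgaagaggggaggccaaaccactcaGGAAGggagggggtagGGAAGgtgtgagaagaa
Gzma (chr13:113100982-113101231, minus strand): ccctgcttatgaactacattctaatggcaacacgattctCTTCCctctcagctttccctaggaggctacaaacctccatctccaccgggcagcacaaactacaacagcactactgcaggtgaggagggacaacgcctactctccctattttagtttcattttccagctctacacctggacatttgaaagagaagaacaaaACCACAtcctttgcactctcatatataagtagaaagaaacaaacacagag
Cd79a (chr7:24897247-24897496, plus strand): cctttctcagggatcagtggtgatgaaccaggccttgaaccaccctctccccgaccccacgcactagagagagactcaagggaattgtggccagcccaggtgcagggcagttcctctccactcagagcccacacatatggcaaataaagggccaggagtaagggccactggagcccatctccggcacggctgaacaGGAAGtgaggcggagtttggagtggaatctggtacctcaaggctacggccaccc
The ETS core was found on either strand in 7 of 7 marker promoters, and in 64.1% of 32851 promoters of the same length. The RUNX core was found in 2 of 7, those of Gzma and Nkg7, and in 14.0% of all. These matches describe letters and give no binding.

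The genes with a pattern over arrays most like that of the markers were looked for among 11558 genes well above background on all 6 arrays. Likeness was Pearson r over 6 arrays with the mean of the 7 markers, each centred on its own mean. That mean was -0.20, 0.37 and -1.14 in PGC-1αf/f replicates 1 to 3 and -0.06, 0.24 and 0.78 in mPGC-1α replicates 1 to 3. The highest were Cd3g, the gamma chain of CD3, at r = 0.996, Acsf3, a mitochondrial acyl-CoA synthetase, at 0.988, Gimap4, a GTPase of lymphocytes, at 0.987, Lck, the kinase that acts on CD3, at 0.986, and Tgfbi, a matrix protein, at 0.983. An r of at least 0.9 was reached by 350 genes, or 3.03%.

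Other genes of T cells were measured in the same fit. Of 20 listed, 13 were tested, and 0 passed an adjusted p of 0.05. Over the 11 well above background on all 6 arrays, 10 had a higher and 1 a lower mean in mPGC-1α microglia, with a median difference of 0.56. Skap1 was well above background on 2 of 3 control arrays and on all mPGC-1α arrays, so that it entered through the group where it was high. At an unadjusted limma p under 0.05, 1 was higher and 1 lower, beside 7.53% and 9.21% of all tested probes. Cd6 differed by 1.04 (SE 0.48), Cd3g by 1.02 (SE 0.61) and Cd2, an adhesion receptor, by 0.95 (SE 0.49), all with overlapping groups. Il7r, the receptor for interleukin 7, went the other way, at -0.89 (SE 0.23, limma adjusted p = 0.176), with all mPGC-1α arrays below the controls. Cd27, Lef1, Bcl11b, Trat1 and Ubash3a were well above background on 0 of 6 arrays.

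Among cytotoxic and natural killer cell genes, 11 of 21 were tested, and 0 passed an adjusted p of 0.05. Over the 9 well above background on all 6 arrays, 7 were higher and 2 lower, with a median of 0.58. Of these 9, 2 were higher and 1 lower at an unadjusted limma p under 0.05, beside 7.53% and 9.21% of all tested probes. Gzmb, granzyme B, and Il18rap were well above background on 1 of 3 control arrays and on all mPGC-1α arrays, and are left out of these counts. Gzmm, granzyme M, differed by 1.18 (SE 0.32, limma adjusted p = 0.184), Il2rb, a chain of the interleukin 2 receptor, by 1.00 (SE 0.54, adjusted p = 0.379) and Ccl5, a chemokine, by 0.87 (SE 0.27, adjusted p = 0.216), and for each of these 3 genes all mPGC-1α arrays lay above the controls. Klrd1, the CD94 receptor of natural killer cells, had a difference of -1.37 (SE 0.50, limma adjusted p = 0.259) with overlapping groups. Ncr1, Klrb1c, Klrc1, Klre1 and Txk, most of them natural killer cell genes, were well above background on 0 of 6 arrays.

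Of 19 B cell genes 10 were tested, and 0 passed an adjusted p of 0.05. Over the 7 well above background on all 6 arrays, 2 were higher and 5 lower, with a median of -0.05. Of these 7, 0 were higher and 1 was lower at an unadjusted limma p under 0.05, beside 7.53% and 9.21% of all tested probes. Fcrla, Vpreb3 and Btla were well above background on 2 of 3 control arrays and on all mPGC-1α arrays, and with these 3 included the median was 0.35. Pou2af1, a coactivator of B cells, differed by 1.77 (SE 0.79, limma adjusted p = 0.319) with all mPGC-1α arrays above the controls, and Ralgps2 by -0.98 (SE 0.25, limma adjusted p = 0.169) with all below. Ly6d differed by 0.71 (SE 0.82) and Bank1 by -0.21 (SE 0.18). Like Cd79a, the B cell genes Pax5 and Blk, and also Cr2 and Fcer2a, were well above background on 0 of 6 arrays.

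Over all tested genes of a list, the median went from 0.72 to 0.31 for T cells, from 0.79 to 0.32 for cytotoxic and natural killer cells and from 0.35 to -0.06 for B cells when PGC-1αf/f replicate 3 was left out, with 11 B cell genes tested in place of 10, again with 0 genes past an adjusted p of 0.05 in limma. The B cell median also went to 0.65 without PGC-1αf/f replicate 1, 0.20 without mPGC-1α replicate 2 and 0.13 without mPGC-1α replicate 3. Without mPGC-1α replicate 1 it was 0.92 over 14 tested genes. These include Ms4a1, Ebf1, Fcmr and Spib, which met the background filter through the mPGC-1α arrays once that array was left out. Ms4a1, Ebf1 and Fcmr were well above background on 0 of 3 control arrays, so the filter itself sets part of the 0.92.

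**Figure D4:**
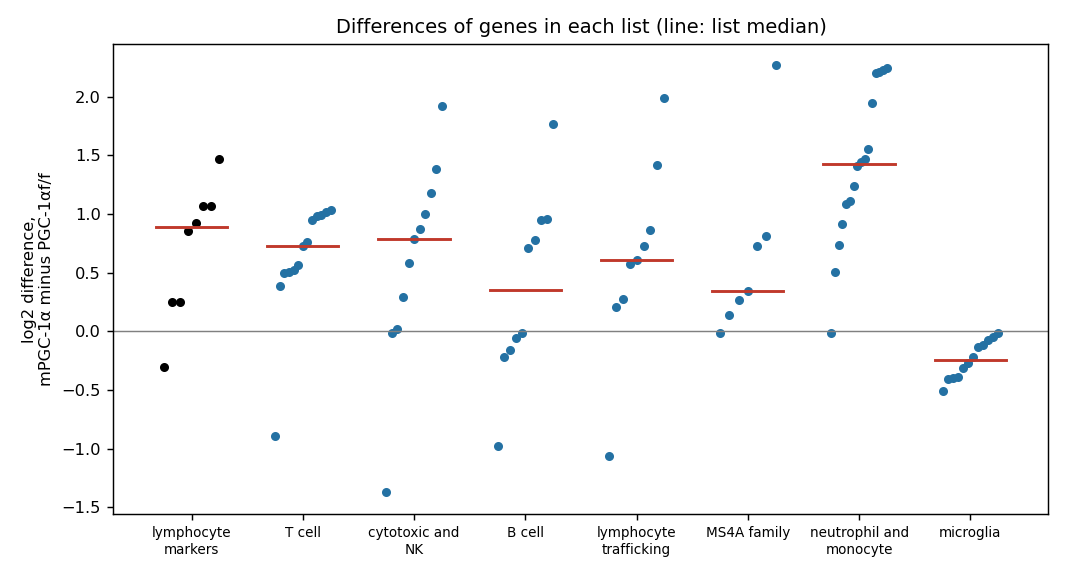
Points are tested genes, grouped by list on the horizontal axis, with the log2 difference, mPGC-1α minus PGC-1αf/f, on the vertical axis, and the line is the list median. Genes well above background on only some control arrays are included. The medians ran from -0.24 for microglia to 1.43 for neutrophils and monocytes, with the lymphocyte markers at 0.89.

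Markers of other cell types were measured on the same arrays. Of 16 neutrophil and monocyte genes 14 were well above background on all 6 arrays, 13 of them higher in mPGC-1α microglia, with a median of 1.33, and the median of all 16 was 1.43. Their summed signal, on the log2 scale, was 5.20 to 7.53 in the controls and 7.55 to 7.78 in mPGC-1α microglia. The lowest was PGC-1αf/f replicate 3, where Mmp9 and Cxcr2 were not well above background, and without it the median of all 16 was 0.35. Microglial genes were lower in 12 of 12, with a median of -0.24 and summed signals of 6.56 to 6.78 in the controls and 6.38 to 6.53 in mPGC-1α microglia over the 6 genes with all values, and their median was -0.28 to -0.13 on leaving out single arrays, nearest to 0 without mPGC-1α replicate 2 (-0.13), PGC-1αf/f replicate 1 (-0.14) or PGC-1αf/f replicate 3 (-0.14). For border macrophages 9 of 9 were higher with a median of 0.31, which went to 0.095 with 6 of 9 higher without mPGC-1α replicate 3 and to 0.46 without mPGC-1α replicate 1. For endothelial and mural cells 6 of 6 tested were higher with a median of 0.57, which went to 0.06 without PGC-1αf/f replicate 3. For erythroid cells 3 of 3 measured on all 6 arrays were higher with a median of 0.12, and over the 4 tested genes the median of 0.20 went to -0.42 without PGC-1αf/f replicate 3, to -0.14 without mPGC-1α replicate 3 and to between 0.31 and 0.68 without any of the other arrays. Of the dendritic cell genes 3 of 6 were tested, with a median of 0.0062, which turned to -0.13 under a median shift, -6.2e-05 under quantile normalization, -0.07 without PGC-1αf/f replicate 3 and -0.13 without mPGC-1α replicate 3, and Zbtb46, Xcr1 and Clec9a were well above background on 0 of 6 arrays. In each of these lists 0 genes passed an adjusted p of 0.05. Their part in the differences of the lymphocyte markers was not tested.

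**Figure D5:**
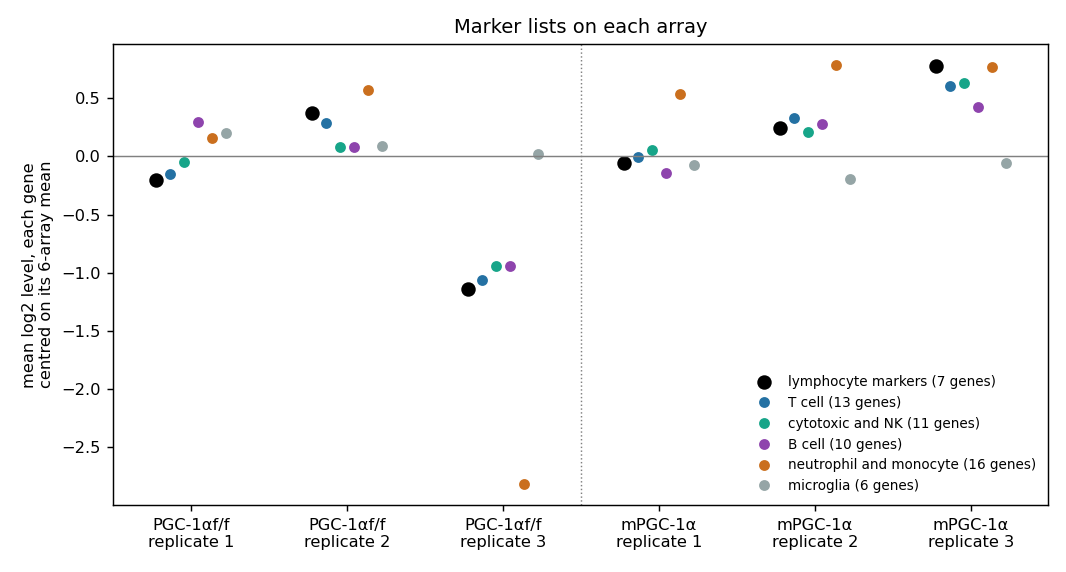
The vertical axis gives the mean log2 level of each list after each gene was centred on its mean over 6 arrays, and the horizontal axis the arrays. On PGC-1αf/f replicate 3 the lymphocyte markers were at -1.14 and the neutrophil and monocyte genes at -2.82, while microglial genes were at 0.02.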

How the data were processed

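Microglial RNA of 6 samples, 3 of each group by the labels, was amplified by the authors, labelled with Cy5 and hybridised to 1-colour Agilent mouse arrays. The intensity values deposited per spot came from the scanner software, which had subtracted background and corrected spatial trends. A series table deposited beside them gave the same intensity, with the arrays not normalized to each other. GeneSpring is the software the methods name for normalization, with no test stated for single genes. The number of arrays limits the precision.

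From the log2 intensity of a spot the 75th percentile of non-control spots on its array was subtracted. Spots called outliers were dropped, and the spots of a probe were averaged. A probe was well above background on an array where at least 0.5 of its spots were, and was tested where this held on all arrays of at least 1 group, which left 25333 of 56605 probes, 25257 of them with a p. Genes were named through RefSeq accessions, with 1 symbol for 33767 probes, and the brightest probe with 6 values stood for a gene, or the brightest tested probe with the most values where none had 6. The fit was limma 3.58.1 (lmFit and eBayes, two-sided, no covariate) in R 4.3.3 (data.table, version 1.17.8), with Benjamini-Hochberg adjustment over all probes and a threshold of 0.05. It was tested on simulated data. Correlations, promoters and figures used Python 3.11.15 with numpy 2.4.6, pandas 2.3.3, scipy 1.17.1 and matplotlib 3.10.9.

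The markers, the gene lists and the tests were chosen with earlier results of these data known. All 9 markers are named. Of each lymphocyte list, genes past an adjusted p of 0.05 were to be named, and up to 4 genes with the largest absolute difference among those well above background on all 6 arrays. The lists were T cell, cytotoxic and natural killer cell, B cell, MS4A family, lymphocyte trafficking, microglia, neutrophil and monocyte, border macrophage, dendritic, erythroid, and endothelial and mural cell genes. Some genes of these lists are not reported here by name. For likeness, the 5 genes with the highest r were named. Genes listed as above background on none or only some of the arrays were named after their values were seen. Other settings tried were scaling by the median or by quantiles, normexp (offset 50) before quantile scaling, the unnormalized series values, keeping outlier spots, dropping the background filter or asking for all 6 arrays, a block on replicate number, a random block on slide column, array weights, a robust eBayes with trend, the mean over a gene's probes, and leaving out arrays.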

Additional observations from a re-analysis of the deposited data

How the results depend on the processing

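Under 18 of 19 alternatives 0 markers passed an adjusted p of 0.05. The deposited table without normalization gave 1, Gzma, at 1.43 with a limma adjusted p of 0.0467, against 0.213 or more under the other alternatives. Without normalization, 4 of 8 markers were higher at an unadjusted limma p under 0.05, beside 4.94% of all probes. Leaving out any single array gave 0 markers and a median over the markers of 0.334 to 1.22. The median was above 0 under all 19, lowest at 0.0912 with array weights, which gave PGC-1αf/f replicate 3 a weight of 0.371 and called 1100 probes in place of 20. Cd4 alone turned its direction, to -0.10 with array weights, -0.032 without mPGC-1α replicate 3 and -0.20 without replicate 3 of both groups, with 0.486 the highest value on leaving out a single array (mPGC-1α replicate 1), and the cause was not tested. Same-numbered samples had deviations that correlated at 0.139, 0.127 and 0.0187, so sharing a number was not read as pairing, and the fit with the replicate block gave a median of 0.753, 0 markers and 0 of all probes past the threshold. The slide column as a random block gave 0.666 with 138 probes past it. A median shift moved the median of all probes to -0.139 and that of the markers to 0.757. The count of all probes past the threshold, 20 in the report, ran from 0 to 1100 over the alternatives, with 456 for the deposited table.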

Other observations

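Genes that guide lymphocytes between blood and tissue were tested in 9 of 11 cases, with 0 past an adjusted p of 0.05 in limma. Over the 8 well above background on all 6 arrays, 7 had a higher mean in mPGC-1α microglia, with a median difference of 0.59. An unadjusted p under 0.05 was found for 1 with a higher and 1 with a lower mean, beside 7.53% and 9.21% of all tested probes. Ccr7 was well above background on 1 of 3 control arrays and on all mPGC-1α arrays, and is left out of these counts. Klf2, a transcription factor that controls exit from lymphoid organs, differed by 0.87 (SE 0.21, limma adjusted p = 0.164) with all mPGC-1α arrays above the controls, while S1pr1, the receptor for that exit, was at -1.07 (SE 0.25, limma adjusted p = 0.171) on 5 arrays. Itga4, an integrin chain, differed by 0.72 (SE 0.32). S1pr4 and Cxcr5 were well above background on 0 of 6 arrays, and without PGC-1αf/f replicate 3 the median over the 9 tested genes was 0.33 in place of 0.61, and without PGC-1αf/f replicate 2 it was 0.92.

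Of the MS4A family, to which Ms4a4b belongs, 7 of 10 other genes were tested, and 0 passed an adjusted p of 0.05. Over the 6 well above background on all 6 arrays, 5 were higher, with a median of 0.30. Of those, 2 with a higher mean and 0 with a lower mean had an unadjusted limma p under 0.05, beside 7.53% and 9.21% of all tested probes. Ms4a8a was well above background on 2 of 3 control arrays and on all mPGC-1α arrays, and is left out of these counts. Ms4a4a differed by 0.73 (SE 0.15, limma adjusted p = 0.145) on 5 arrays and Ms4a6c by 0.81 (SE 0.22, limma adjusted p = 0.181) with all mPGC-1α arrays above the controls. Ms4a6d differed by 0.34 (SE 0.19) and Ms4a7, a border macrophage gene, by 0.27 (SE 0.33). Ms4a4d, Ms4a15 and Ms4a2 were well above background on 0 of 6 arrays, and without PGC-1αf/f replicate 3 the median over the 7 tested genes was 0.26 in place of 0.34. Without mPGC-1α replicate 1 it was 0.60.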
